A study of Mus musculus with 4 samples.

Results

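Single-base insertions are the alleles in which exactly 1 base was added within 10 bp of the Cas9 cut and nothing was deleted. They were chosen by the alignments in the deposited allele tables, as rows with 1 internal gap of 1 base in the reference sequence and no internal gap in the read. They comprised 2247 of the 76510 alleles and 57374 of the 1636791 aligned reads. Pools of E14 mESCs (mouse embryonic stem cells, a male line of strain 129/Ola grown without feeder cells) were lipofected with pX plasmids encoding Cas9 nuclease and 1 sgRNA, selected by puromycin or GFP, and sequenced as short amplicons. Site 7 on chromosome 16, labelled as Runx1, and Site 9 on chromosome 6, labelled as Prickle2, had 2 replicate libraries each, and the labels give both the same cells, growth medium, transfection and selection. The labels do not say whether replicates were separate transfections, so the spread between them may be technical. Untreated cells were not analysed here.

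When Cas9 cuts both strands at the same position the ends are blunt and can be religated without change, but Cas9 can also cut its non-target strand further from the PAM and leave a short 5′ overhang. When a polymerase fills such an overhang and non-homologous end joining ligates the ends, the base on the PAM-distal side of the cut is duplicated. An insertion that copies a base beside the cut is therefore called templated, and an insertion of any other base needs bases added without that template. In the sequences that follow, an inserted A, C or T is known to copy neither flanking base. An inserted G is called a copy because it equals a flanking base, but a G added without a template gives the same read. At neither site can it be told which flanking base was copied, because G lies on both sides of each cut.

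In mm9 the target of the Site 7 sgRNA occupies bases 92520182 to 92520201 of chromosome 16 on the minus strand and that of the Site 9 sgRNA bases 92370105 to 92370124 of chromosome 6 on the plus strand, each followed by the PAM AGG. They are shown 5′ to 3′ because they place the cut, which falls between the 2 capitals:
Site 7 protospacer: gtccaactgaaaacgcCCtt
Site 9 protospacer: taaaatattcacacgtGGgc
The Site 7 cut follows base 92520184 of chromosome 16 and is intronic in Clic6 (a chloride intracellular channel gene, ENSMUSG00000022949.3), with the nearest exon 8120 bases away. The labels name the site Runx1, and the paper describes it as lying at the Runx1 locus. The Site 9 cut follows base 92370121 of chromosome 6 and is intronic in Prickle2 (a planar cell polarity gene, ENSMUSG00000030020.7), with an exon at 92370137 to 92370340 that starts 15 bases away. Both cuts follow the first G of a run of 3 G on the plus strand, but from opposite orientations. At Site 7 the PAM-distal side of the cut holds 2 bases of the run, and at Site 9 it holds 1.

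The most abundant read of each insertion at the cut is shown on the plus strand (chr16:92520173-92520196 and chr6:92370110-92370133), so that the repair products can be compared base by base. Capitals mark the 2 bases that flank the cut in the reference and the inserted base in each allele. An inserted G gives the same read at any place in the run of G, and it is written at the cut by convention.
Site 7 reference: ttaaaacctaaGGgcgttttcagt
Site 7 with G: ttaaaacctaagGggcgttttcagt
Site 7 with A: ttaaaacctaagAggcgttttcagt
Site 7 with C: ttaaaacctaagCggcgttttcagt
Site 7 with T: ttaaaacctaagTggcgttttcagt
Site 9 reference: tattcacacgtGGgcaggggctct
Site 9 with G: tattcacacgtgGggcaggggctct
Site 9 with A: tattcacacgtgAggcaggggctct
Site 9 with C: tattcacacgtgCggcaggggctct
Site 9 with T: tattcacacgtgTggcaggggctct

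Site 9 had more single-base insertions than Site 7 in both replicates. The libraries held between 380601 and 447620 aligned reads, of which the authors' program called 228849 to 396353 modified. Site 7 replicate 1 had a single-base insertion in 8233 of its 383528 modified reads (2.15%, 95% Wilson interval 2.10 to 2.19%) and replicate 2 in 7786 of its 396353 (1.96%, 1.92 to 2.01%). Site 9 replicate 1 had one in 23577 of its 287259 modified reads (8.21%, 8.11 to 8.31%) and replicate 2 in 17010 of its 228849 (7.43%, 7.33 to 7.54%). Site 7 averaged 2.06% ± 0.129 and Site 9 7.82% ± 0.548 (SD, n = 2 each), a 3.80-fold difference that was larger than the spread between replicates. The exact permutation test over libraries (two-sided) gave p = 0.333, the smallest that 2 libraries against 2 can give, so no comparison of the sites could reach 0.05. This was 1 of 7 comparisons of the sites, each of which gave p = 0.333 in the same exact permutation test and 0.333 after Benjamini-Hochberg adjustment. The intervals cover counting error only, since reads from PCR without molecular identifiers can be copies of 1 molecule.

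A single base was the most common length of insertion without a deletion in each library. They made up 53.6% and 63.2% of the reads with 1 insertion of any length near the cut at Site 7, and 48.2% and 49.9% at Site 9. The second most common length, 2 bases, made up 6.94% and 4.85% at Site 7, against 12.9% and 13.1% at Site 9. Most of their alleles were rare. Between 298 and 616 alleles per library had a single read, and only 12 to 38 had at least 10 reads. The excess of Site 9 was smaller over all aligned reads (4.95% ± 0.555 against 2.00% ± 0.126, SD, n = 2 each), since fewer of its reads were modified.

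The inserted base was G in most reads at both sites. At Site 7, G at the cut was found in 6291 of 8288 reads with a single-base insertion in replicate 1 (75.9%, 95% Wilson interval 75.0 to 76.8%) and in 5750 of 7838 in replicate 2 (73.4%, 72.4 to 74.3%). At Site 9 it was found in 13948 of 23908 reads in replicate 1 (58.3%, 57.7 to 59.0%) and in 9113 of 17340 in replicate 2 (52.6%, 51.8 to 53.3%). The ranges of the sites did not overlap, with Site 7 the higher. When G was counted wherever it was placed within 10 bp, Site 7 averaged 74.8% ± 1.62 inserted G (SD, n = 2) and Site 9 averaged 56.0% ± 4.80 (SD, n = 2), with p = 0.333 in the exact permutation test. The allele with G inserted and no other change, shown above, ranked as number 9 and 10 of all alleles in the Site 7 libraries and as number 4 and 5 in the Site 9 libraries. It supplied 94.0 to 95.3% of the reads with G at the cut, and the rest was spread over rarer reads with the same insertion.

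The bases that copy neither flank made up the remaining insertions at the cut. At Site 7, A was inserted at the cut in 610 and 679 reads, 7.36% and 8.66% of the single-base insertions in replicates 1 and 2. C was inserted in 447 and 615 reads (5.39% and 7.85%) and T in 350 and 364 reads (4.22% and 4.64%). The order A, C, T was thus the same in both libraries, but A and C overlapped between replicates and only T lay below both.
At Site 9, T was inserted in 3237 and 2546 reads (13.5% and 14.7%), A in 2700 and 2466 reads (11.3% and 14.2%) and C in 2256 and 1770 reads (9.44% and 10.2%). Here T and A overlapped between replicates, and C lay below both. On the plus strand T was therefore the least common base at Site 7 and the most common of these 3 at Site 9. On the protospacer strand, where the Site 7 bases become their complements, T was the most common of the bases that copy neither flank in all 4 libraries, although at each site the second base overlapped with it between replicates.
Of the 350 reads with T at the Site 7 cut in replicate 1, 130 also carried a substitution within 10 bp of the cut, against 7 of 364 in replicate 2.

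**Figure D1:**
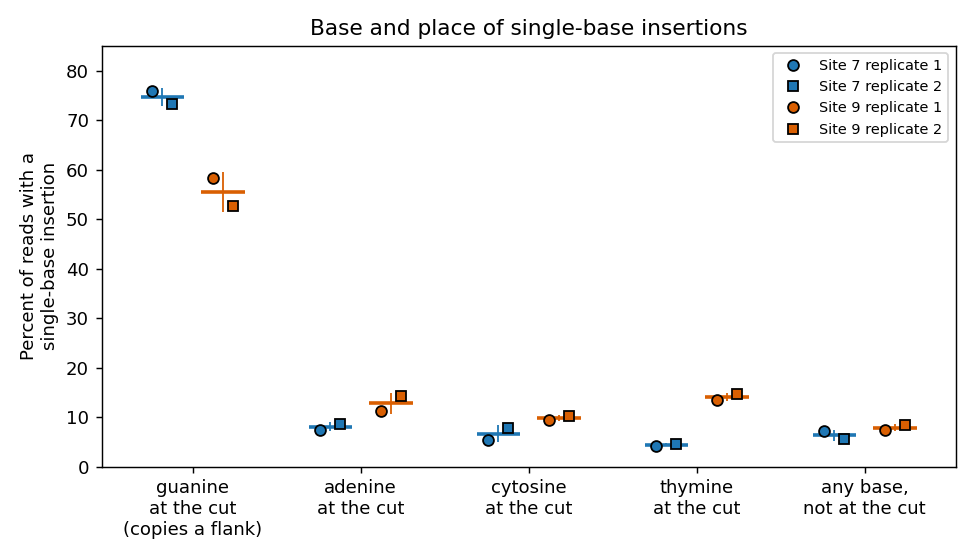
Percent of reads with a single-base insertion (y axis) by inserted base and place (x axis) in each library, with the mean (horizontal line) and SD (vertical line) of each site. Guanine, which copies a flanking base, made up 73.4 to 75.9% at Site 7 and 52.6 to 58.3% at Site 9, and each of the other 3 bases at the cut was more common at Site 9.

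Among insertions at the cut alone, copies of a flanking base were 81.7% (95% Wilson interval 80.8 to 82.6%) and 77.6% (76.7 to 78.6%) at Site 7 and 63.0% (62.4 to 63.6%) and 57.3% (56.6 to 58.1%) at Site 9. Site 7 averaged 79.7% ± 2.90 (SD, n = 2) and Site 9 averaged 60.2% ± 4.0 (SD, n = 2), a difference of -19.5 percentage points (Site 9 minus Site 7) that was larger than the spread between replicates (exact permutation test, p = 0.333). The part of the inserted G that was added without a template cannot be told from the reads. Both kinds of insertion were more frequent at Site 9, but not to the same degree. Inserted G at the cut made up 1.64% and 1.45% of modified reads at Site 7 and 4.86% and 3.98% at Site 9, a 2.86-fold difference of the means. Inserted A, C or T at the cut made up 0.367% and 0.418% at Site 7 and 2.85% and 2.96% at Site 9, a 7.41-fold difference.

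Loss of 1 base from the same run of G, the deletion counterpart of the inserted G, went the other way. Modified reads with only this deletion made up 19.1% and 17.5% at Site 7 and 8.59% and 7.34% at Site 9, 2.30-fold more at Site 7. At Site 7 there were 7698 insertions at the cut for 73199 deletions of G in replicate 1 and 7408 for 69474 in replicate 2, or 10.5 and 10.7 insertions per 100 deletions. At Site 9 there were 22141 for 24687 and 15895 for 16788, or 89.7 and 94.7 per 100. The means of 10.6 ± 0.104 and 92.2 ± 3.53 (SD, n = 2 each) differed 8.70-fold (exact permutation test, p = 0.333). These count inserted A, C and T as well. With inserted G alone, the means were 8.44 ± 0.225 at Site 7 and 55.4 ± 1.57 at Site 9 per 100 deletions (SD, n = 2 each). The balance between gain and loss of 1 base thus differed more between the sites than between replicates. When an insertion was counted only at the position where the alignment placed it, which leaves out inserted G, the difference went from 81.6 to 34.6 insertions per 100 deletions.

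**Figure D2:**
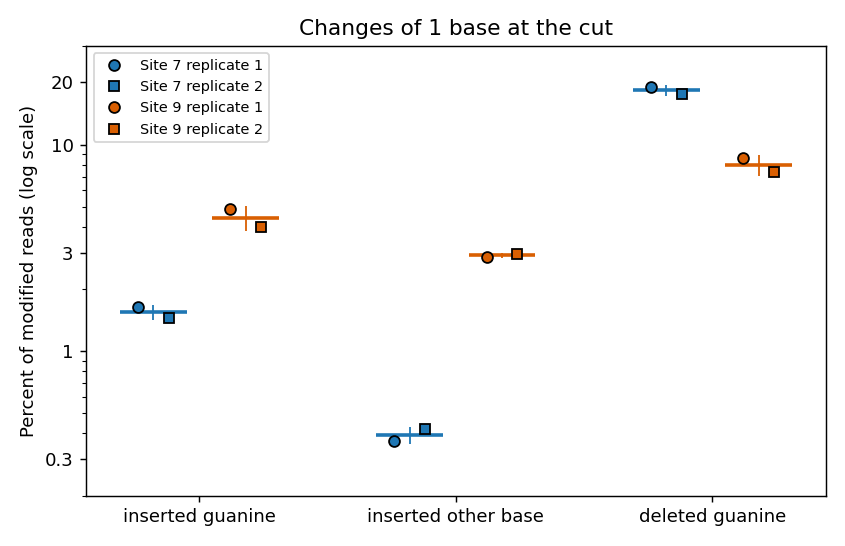
Percent of modified reads (y axis, log scale) with an inserted guanine at the cut, another inserted base at the cut, or 1 deleted guanine at the cut, in each library, with site means (horizontal lines) and SD (vertical lines). Both kinds of insertion were higher at Site 9 (4.42% and 2.91% against 1.55% and 0.393%), and the deletion was higher at Site 7 (18.3% against 7.96%).

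Single-base insertions were concentrated at the cut. With substitutions ignored in the placement, insertions that can be placed exactly at the cut made up 92.9% and 94.5% of the single-base insertions at Site 7 and 92.6% and 91.7% at Site 9. These shares are lower limits, since some reads with a substitution can also be written with the insertion at the cut. The difference between the site means (Site 9 minus Site 7) was -1.56 percentage points, close to the SDs of 1.15 and 0.666 (exact permutation test, p = 0.333). It was -0.743 points without Site 7 replicate 2 and -2.38 points without Site 7 replicate 1. The 10 bp limit of the definition was applied to the aligned position. Insertions aligned 8 to 10 bases from the cut, just inside it, numbered 8 reads in Site 7 replicate 2 and none in the other 3 libraries. By the possible place nearest the cut they numbered 7. Those aligned 11 to 13 bases away, just outside the limit, numbered 5 reads in Site 7 replicate 2 and none elsewhere. These 5 can also be placed 10 bases before the cut.

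The rest of each amplicon was searched for single-base insertions away from the cut in the same libraries. Only reads without another insertion or deletion could count. At Site 7, 393745 of 397547 and 405295 of 411023 aligned reads were changed within 10 bp of the cut and could not. At Site 9 this held for 293064 of 447620 and 234119 of 380601. Over the positions more than 10 bp away, 9 and 26 reads had a single-base insertion at Site 7, of which 9 and 21 lay within 15 bases of the ends of the reads. At Site 9 there were 301 and 269 such reads, of which 293 and 259 lay within 15 bases of the ends. Away from the ends, no position outside the 10 bp limit held more than 7 of the reads that could count, while the cut held 7408 to 22141 reads. Other runs of G were counted in the same way. At Site 9 the run of 4 G that begins 5 bases after the cut had an inserted G as the only insertion or deletion in 0 of 447620 and 0 of 380601 aligned reads. The limit for a count of 0 (3 reads) is 0.000670% and 0.000788% of aligned reads, but a larger share of the reads that could count. The run at the cut had it in 3.12% and 2.39% of aligned reads. At Site 7, where the run at the cut had it in 1.58% and 1.40%, the other 5 runs of 3 to 5 G had at most 2 such reads each. Nearly all Site 7 reads were changed near the cut and could not count at these runs, so the shares are not like for like.

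**Figure D3:**
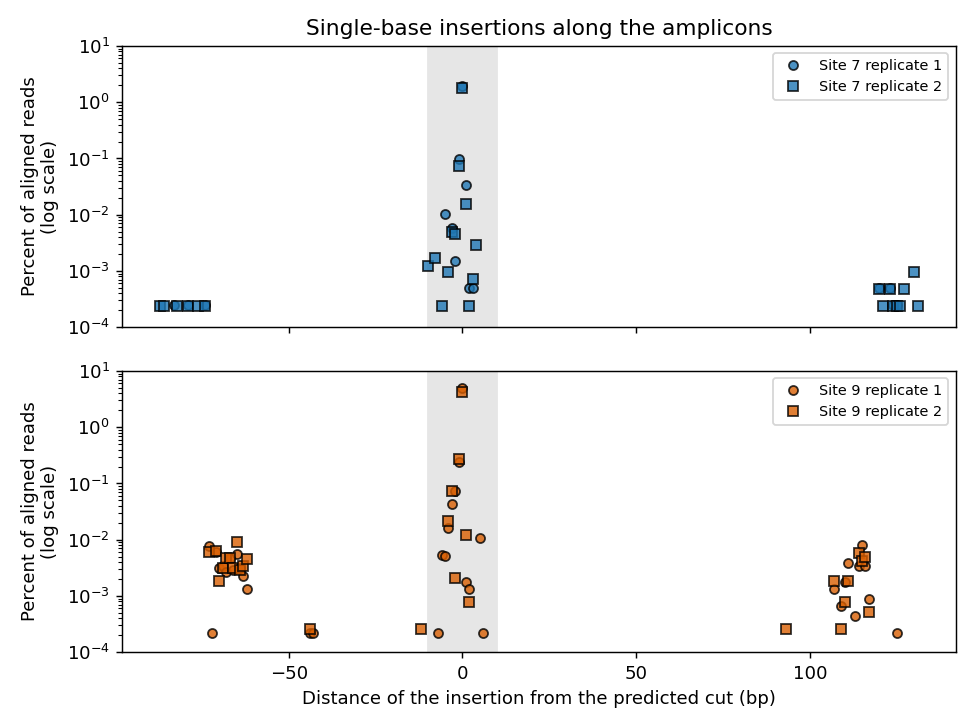
Percent of aligned reads with a single-base insertion as their only insertion or deletion (y axis, log scale) against its distance from the predicted cut in bp (x axis), with Site 7 above and Site 9 below, 1 symbol per library and position, and the 10 bp window in grey. Positions without reads are not drawn. Each insertion is drawn at its possible place nearest the cut. A read changed near the cut could not count outside the window. The cut stands far above all other positions in each library, and the insertions outside the window lie mostly near the ends of the reads.

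Reads placed off the cut made up 7.12% and 5.49% of the single-base insertions at Site 7 and 7.39% and 8.33% at Site 9. Placement ignored substitutions, and a substitution beside the cut can itself shift an insertion off it. The contrast in substitutions that follows is therefore partly built into the classes. A substitution within 10 bp of the cut was present in 65.1% and 82.6% of the reads placed off the cut at Site 7 and in 75.8% and 74.6% at Site 9. It was present in only 0.258 to 0.470% of the reads with G at the cut. Reads with another base at the cut lay between, with 9.59% and 1.45% at Site 7 and 2.67% and 3.01% at Site 9. Over all single-base insertions the Site 7 libraries had a substitution in 6.58% and 5.18% of reads and the Site 9 libraries in 6.67% and 7.58%. The difference of the means, 1.25 percentage points, was close to the SDs of 0.987 and 0.648 (exact permutation test, p = 0.333). It was 0.550 points without Site 7 replicate 2, 0.789 without Site 9 replicate 2 and 1.95 without Site 7 replicate 1, and 4.82 points (24.7% against 19.9%) when each allele was counted once, whatever its number of reads.

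Off the cut, 1 insertion at each site exceeded 1% of the single-base insertions in both libraries. At Site 7 this was an A in the pair of A that ends 1 base before the cut, with 350 and 251 reads, of which 88.3% and 90.4% carried a substitution within 10 bp of the cut. At Site 9 it was a T beside the T that ends 1 base before the cut, with 659 and 805 reads, of which 90.7% and 60.7% carried a substitution. Their most abundant alleles are shown because each changes the base directly before the cut as well, with the inserted and the substituted base in capitals. The substitutions are G98A at Site 7 and G76A at Site 9, counted from 1 at the first base of the amplicon.
Site 7 off the cut: ttaaaacctaaAAggcgttttcagt
Site 9 off the cut: tattcacacgtTAggcaggggctct
Both alleles can be read as a single change, in which the G before the cut was replaced by 2 bases. They can equally be written as a substitution of that G with the insertion at the cut. This change of 1 base for 2 was found in 27.1% and 34.9% of the reads with an insertion off the cut at Site 7 and in 21.9% and 36.3% at Site 9. When equal bases were trimmed from both sides, the changed stretch reached the cut in 63.2% and 75.8% of these reads at Site 7 and in 72.2% and 74.0% at Site 9.

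**Figure D4:**
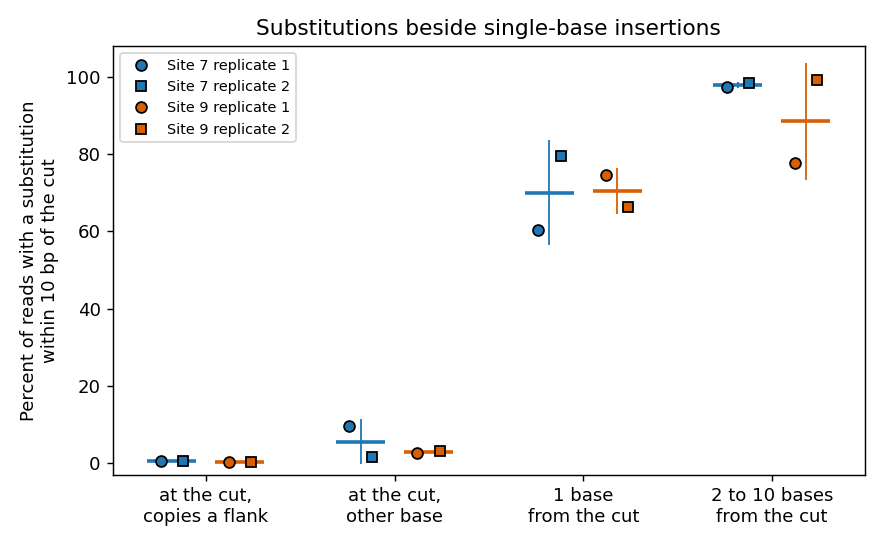
Percent of reads with a substitution within 10 bp of the cut (y axis) among single-base insertions by place (x axis), with site means (horizontal lines) and SD (vertical lines). Reads with a copied base at the cut carried one in under 1% of cases and reads with an insertion 1 base away in 60.5 to 79.6%. Placement ignored substitutions, so the classes are not independent of them.

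Without the reads that had such a substitution, 97.3% and 99.0% of the remaining single-base insertions at Site 7 and 98.1% and 97.7% at Site 9 could be placed at the cut, and the ranges of the sites then overlapped. Of those 1 base away, 133 and 47 reads lay on the PAM-distal side and 71 and 27 on the PAM-proximal side at Site 7. At Site 9, 268 and 361 lay on the PAM-distal side and 4 and 3 on the PAM-proximal side. Among these reads the PAM-distal side was the larger in all 4 libraries, but 1 allele supplied 101, 41, 194 and 301 of them on that side. With the reads that carried a substitution, the larger side at Site 7 was the PAM-proximal one, with 381 and 298 reads against 135 and 65. At Site 9 it was still the PAM-distal one, with 1060 and 1029 reads against 8 and 47. The order at Site 7 thus depended on the reads with a substitution, and an inserted G within the run cannot be assigned to a side.

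The authors' program treated insertions by where the alignment placed them. It attributed an insertion to the cut in all 7864, 7520, 22550 and 16166 reads whose gap was aligned within 1 base of the cut, and in none of the 424, 318, 1358 and 1174 reads whose gap was aligned further away (Site 7 replicates 1 and 2, then Site 9 replicates 1 and 2). Of the latter, 55 and 52 reads at Site 7 and 331 and 330 reads at Site 9 were called unmodified. Reads called unmodified made up 0.664% and 0.663% of the single-base insertions at Site 7 and 1.38% and 1.90% at Site 9, and all of them had an insertion off the cut. The means of 0.664% ± 0.000124 and 1.64% ± 0.367 (SD, n = 2 each) differed by more than the spread between replicates (exact permutation test, p = 0.333).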

How the data were processed

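Genomic DNA of edited mESC pools was amplified around the cut and sequenced. The authors trimmed the reads (Trim Galore 0.3.1, per the labels) and ran CRISPResso, which aligned reads to the amplicon and merged identical ones into alleles. The deposited count of an allele is its number of reads, and the deposited percent is its share of all aligned reads of the library, which was used to check the counts. Program settings are not given in the sources used here.

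Gaps at the ends of alignments were ignored. The cut was taken after base 98 of the Site 7 amplicon and base 76 of the Site 9 amplicon, which were located on mm9 by exact match. The alignments put an inserted base at its leftmost place. Each was assigned to every position that gives the same read when the base is added to the unchanged reference. It was counted at the cut if 1 of these was the cut. Substitutions in the read were not allowed for, so some reads counted off the cut can also be written with the insertion at it. Named insertions were the 4 bases at the cut and any other base and position with at least 1% of single-base insertions in both libraries of a site. The insertions, lists and rules were chosen with earlier results of these data known. Shares have 95% Wilson intervals, and 3 reads was the limit for a count of 0. Sites were compared with exact two-sided permutation tests over libraries, unpaired. The parser was tested on simulated alignments. Python 3.11.15, pandas 2.3.3 and scipy 1.17.1 were used. Alternatives covered the denominator, the window (3 and 20 bp), alleles with at least 10 reads, reads without substitutions, allele counts, the aligned position, pairing and leaving out each library.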

Additional observations from a re-analysis of the deposited data

Results flagged for a closer look

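Single-base insertions more than 10 bp from the cut, which enter no comparison of the sites, were found in 9 reads of Site 7 replicate 1, 26 reads of Site 7 replicate 2, 301 reads of Site 9 replicate 1 and 269 reads of Site 9 replicate 2. Each count lies above 3 reads, the limit for a count of 0, but it is a sum over 201 positions at Site 7 or 175 at Site 9. That limit is therefore not a background level for these counts, and there were no control libraries to set them against. Most of these insertions lay within 15 bases of the ends of the reads. A read changed near the cut could not count here. Nearly all Site 7 reads were so changed, against a smaller part of the Site 9 reads, so the counts do not compare the sites.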

How the results depend on the processing

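Of 42 recomputed differences between the sites, other than those without 1 library, 40 kept their direction. Among them, the setting with replicate number as a block, used for each of the 7 comparisons, cannot change a difference. When an insertion was counted only at the position where the alignment placed it, the difference in the share placed at the cut turned from -1.56 to 17.6 percentage points, and the difference in copies of a flanking base went from -19.5 to 0 points, because the alignments put every inserted G 1 base to the left of the cut. Over all alternatives, the difference in single-base insertions per modified read (5.76 points) ranged from 2.95 (all aligned reads) to 6.74 points, that in inserted G (-18.8) from -22.7 to -18.8 points, that in insertions per 100 deletions (81.6) from 34.6 (aligned position) to 97.1 (each allele counted once) and that in reads with a substitution (1.25) from 1.22 to 4.82 points (each allele counted once). Counting each allele once gave 3.21 points for insertions per modified read. Without 1 library, the difference in insertions per modified read was 5.38 to 6.15 points, in inserted G -22.2 to -15.4, in copies of a flanking base -22.3 to -16.7, in insertions per 100 deletions 79.1 to 84.1, in reads called unmodified 0.721 to 1.24 and in reads with a substitution 0.550 to 1.95 points (1.25 with all libraries). With 1 library left at a site no test was made. With replicate number as a block, the difference in single-base insertions stayed at 5.76 points and p was 0.5, the smallest that an exact test of 2 pairs can give, as it was for the other 6 comparisons. Deviations of the 4 bases at the cut correlated at 0.87 between libraries of the same number and at -0.87 otherwise, its mirror image, and the libraries share only a number. Neither test can reach 0.05, so neither shows stability.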
